A study of Mus musculus with 30 samples.

Results

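The sites described here are stretches of chromatin that opened when mouse CD4 T cells were activated and that stood at least 2-fold less open in activated cells of a PKA knockout (KO) than in activated control (WT) cells. They were chosen on ATAC-seq counts, in which the number of transposase insertions at a site reports how accessible its DNA is. Counts per site were scaled to the library's total (CPM, counts per 1000000 counts), averaged over 3 libraries, and compared on a log2 scale after adding 0.5 CPM. A site was taken when activated WT stood at 1 or more above naive WT and activated KO stood at -1 or less against activated WT. This picked 4623 of 110808 sites, or 4.17%, which is 8.91% of the 51866 sites that opened at least 2-fold in WT. A working label for these sites was that they open only with PKA, and the data went against it, since 3131 of them (67.7%) still opened at least 2-fold in KO. The chosen sites are called reduced-opening sites below.

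Naive CD4 T cells were sorted from spleen and lymph nodes of KO and WT mice. Activated cells had received 3 days of stimulation through CD3 and CD28. For RNA there were also cells rested for 3 days in IL-7 and then given forskolin, which raises cyclic AMP, at 1 ug/mL for 4 h. Each combination of genotype, state and assay held 3 libraries. The labels give neither the PKA gene that was removed, nor the promoter or cell type that drove its removal, nor the age of the mice, and no label tells if replicate libraries stem from different mice. The p-values therefore cover the spread between libraries, which may be technical. Prkaca, the gene of a catalytic PKA subunit, had 0.867, 1.38 and 0.926 CPM of RNA in activated KO, against 42.0, 53.3 and 48.4 CPM in activated WT.

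Protein kinase A is the kinase switched on by cyclic AMP. It phosphorylates CREB, a transcription factor that binds the cyclic AMP response element (CRE) and recruits the coactivators CBP and p300. In T cells, stimulation of the antigen receptor brings NFAT, NF-kappaB and AP-1 to regulatory DNA, and much of the chromatin that opens upon activation carries AP-1 sites. IL-12 acts through its receptor and STAT4 to direct CD4 T cells to the Th1 fate.

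ATAC libraries held 18522373 to 25318916 counts in sites and RNA libraries 7665955 to 11950488 counts in genes. In activated cells, the 7 T cell markers (Cd3d, Cd3e, Cd3g, Cd4, Trac, Lck and Cd2) were all detected and summed to 1923 to 1966 CPM in KO and 2016 to 2126 CPM in WT. The 7 B cell markers summed to 162 to 191 CPM in activated KO and 105 to 129 CPM in activated WT, with Pax5 at 0 in KO. The 5 NK cell markers summed to 11.2 to 37.1 CPM in activated KO and 13.9 to 52.1 CPM in activated WT, with Ncr1, Klre1 and Klra8 at 0 in both. The 10 myeloid and dendritic markers summed to 8.59 to 8.80 CPM in activated KO and 7.92 to 10.8 CPM in activated WT, with Lyz2, Itgax, S100a8 and S100a9 at 0 in both. Cd8a and Cd8b1 together came to 6.09 to 9.61 CPM in activated KO and 5.205 to 9.89 CPM in activated WT. The part that other cell types take in the results below was not tested.

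The sequences of most reduced-opening sites were not used here, since only gene starts came with sequence. RefSeq windows on GRCm38.p6 from 250 bases before to 50 bases after a gene start overlapped a reduced-opening site by at least 150 bp for 39 genes at 38 sites. Those of genes that the results return to, except Xcl1, are printed 5′ to 3′ on the gene's strand. Each is the stretch that the window and the site share. The Xcl1 stretch, which is not printed, has no match to the motifs marked in capitals. Capitals mark matches to the full CRE (TGACGTCA), to its half-site (TGACG) and to the AP-1 site (TGANTCA) on either strand, where a full CRE contains the half-site. Gzmb (chr14:56262285-56262577, minus strand), the start of the gene for the cytotoxic protease granzyme B, is shown since its RNA stood among those furthest below WT and this is its only site in the files. Havcr2 (chr11:46454681-46454980, plus strand) encodes the checkpoint receptor TIM-3. Ccr6 (chr17:8242276-8242575, plus strand) encodes a chemokine receptor of Th17 and memory cells. Zdbf2 (chr1:63273019-63273318, plus strand), an imprinted gene, has the only full CRE among the named genes. Il3 (chr11:54267234-54267529, minus strand), the gene for a blood cell growth factor, has no match to these 3 motifs. Gm32249 (chr11:99168100-99168361, plus strand), an unnamed gene model beyond Ccr7, is shown since its site was already lower in naive KO.
Gzmb: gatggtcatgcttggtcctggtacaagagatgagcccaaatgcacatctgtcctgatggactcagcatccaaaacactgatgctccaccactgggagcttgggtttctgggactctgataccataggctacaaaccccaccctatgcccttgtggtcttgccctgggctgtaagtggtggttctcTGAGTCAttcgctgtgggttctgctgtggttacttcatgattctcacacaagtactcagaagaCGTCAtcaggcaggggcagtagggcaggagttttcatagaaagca
Havcr2: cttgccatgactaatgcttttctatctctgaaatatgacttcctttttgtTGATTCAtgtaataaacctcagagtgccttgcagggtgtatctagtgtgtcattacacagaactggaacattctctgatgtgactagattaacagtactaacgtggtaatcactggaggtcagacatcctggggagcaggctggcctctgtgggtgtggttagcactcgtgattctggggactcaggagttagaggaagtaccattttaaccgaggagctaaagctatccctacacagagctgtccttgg
Ccr6: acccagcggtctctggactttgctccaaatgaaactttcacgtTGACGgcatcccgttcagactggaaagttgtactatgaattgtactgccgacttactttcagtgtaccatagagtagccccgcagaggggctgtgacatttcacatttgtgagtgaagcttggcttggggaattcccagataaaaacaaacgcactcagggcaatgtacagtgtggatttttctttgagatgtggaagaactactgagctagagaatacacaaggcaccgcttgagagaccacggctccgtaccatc
Zdbf2: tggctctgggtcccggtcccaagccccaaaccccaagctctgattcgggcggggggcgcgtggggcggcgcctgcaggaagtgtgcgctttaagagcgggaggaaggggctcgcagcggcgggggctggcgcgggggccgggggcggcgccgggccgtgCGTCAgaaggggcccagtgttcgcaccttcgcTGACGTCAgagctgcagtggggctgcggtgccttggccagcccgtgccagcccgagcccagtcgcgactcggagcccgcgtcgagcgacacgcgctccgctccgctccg
Il3: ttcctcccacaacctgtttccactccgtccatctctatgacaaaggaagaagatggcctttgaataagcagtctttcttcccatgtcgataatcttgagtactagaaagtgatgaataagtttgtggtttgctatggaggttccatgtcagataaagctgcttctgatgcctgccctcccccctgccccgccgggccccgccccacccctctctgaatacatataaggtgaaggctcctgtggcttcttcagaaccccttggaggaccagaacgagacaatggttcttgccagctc
Gm32249: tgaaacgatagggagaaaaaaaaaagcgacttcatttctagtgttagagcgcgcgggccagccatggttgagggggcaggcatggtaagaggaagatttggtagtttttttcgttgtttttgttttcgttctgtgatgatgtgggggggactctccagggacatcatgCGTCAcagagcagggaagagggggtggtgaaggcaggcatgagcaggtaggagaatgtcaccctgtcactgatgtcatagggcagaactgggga

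An AP-1 site was present in 16 of the 39 windows (41.0%), against 9.80% of 1378 windows at sites that opened alike in both genotypes and 7.86% of all 28780 windows. The full CRE was present in 3 windows (7.69%), against 2.18% of windows that opened alike and 1.84% of all windows, and 2 of the 3, those of Zdbf2 and Gm11608, lie on the same site. Its half-site was present in 12 windows (30.8%), against 21.3% at sites that opened alike, 20.9% of all windows and 33.7% of the 10009 windows at any site in the files. Of those 10009 windows, 5.65% held an AP-1 site and 3.84% a full CRE. The NBRE, the element of NR4A receptors (AAAGGTCA), was present in 8 windows (20.5%), against 1.23% at sites that opened alike and 1.47% of all windows. The GATA motif (AGATAA) was also present in 8 windows (20.5%), against 5.30% at sites that opened alike and 11.1% of all windows. RUNX (TGTGGT) was in 11 windows (28.2%), against 12.99% at sites that opened alike and 16.8% of all windows. The NFAT core (TGGAAA) was in 11 windows as well (28.2%), against 18.2% at sites that opened alike and 21.3% of all windows. The E-box (CAGCTG) was in 17.9%, against 17.3% at sites that opened alike. TCF and LEF (CTTTGAA) was in 7.69%, against 3.05% at sites that opened alike, and the T-box (AGGTGTGA) in 5.13%, against 1.45% there. The letters of the ETS (CCGGAAGT), NF-kappaB and EGR (GCGTGGGCG) motifs were found in none of the 39 windows and in 1.67%, 2.32% and 1.23% of those that opened alike. A median of 50.7% of the bases were G or C, against 61.0% where sites opened alike and 53.0% over all windows. These shares are descriptions of a few windows and no test was made of them.

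Opening at these sites was reduced, not absent. In activated KO libraries the median reduced-opening site held 1.51, 1.45 and 1.49 CPM, in activated WT libraries 5.37, 4.71 and 4.75 CPM, in naive KO libraries 0.154, 0.184 and 0.168 CPM, and in naive WT libraries 0.0860, 0.0839 and 0.216 CPM. Activated KO thus stood between activated WT and the naive libraries, and replicate 3 of naive WT stood apart from the other two with a median of 4 counts a site against 2. Together the sites took 1.20%, 1.15% and 1.16% of all counts in activated KO, 3.73%, 3.29% and 3.31% in activated WT, 0.173%, 0.205% and 0.191% in naive KO and 0.171%, 0.187% and 0.218% in naive WT. At 34205 sites that opened at least 2-fold in WT and differed by less than 0.5 on the log2 scale between activated genotypes, the median site held 3.36 CPM in activated KO and 3.32 CPM in activated WT. A value of 0 in an ATAC library allows up to 3 counts, which is 0.118 to 0.162 CPM, and 37.9% to 66.2% of reduced-opening sites were at 3 counts or fewer in a naive library.

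**Figure D1:**
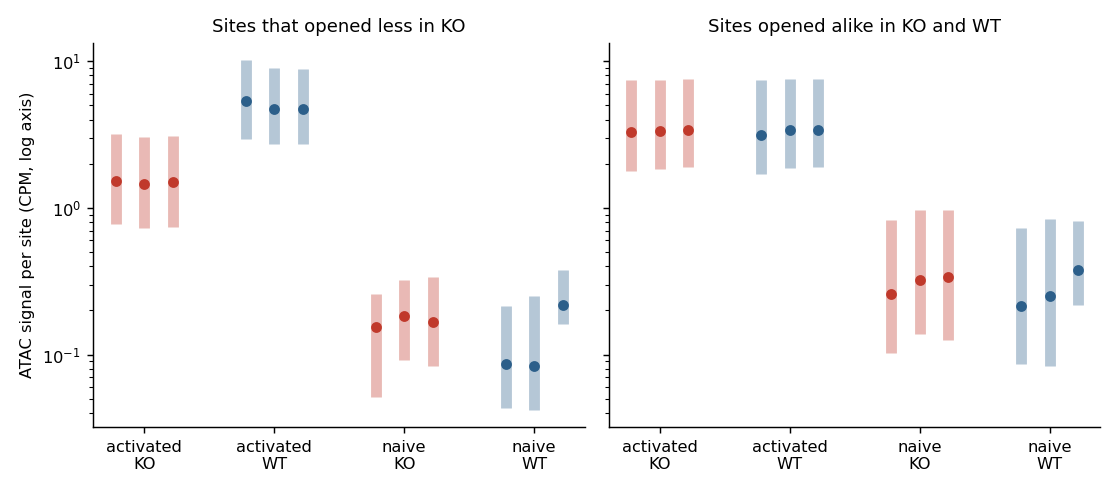
Median (point) and interquartile range (bar) of CPM over sites in each ATAC library, on a log axis, for the 4623 reduced-opening sites and for the 34205 sites that opened alike. At reduced-opening sites the medians of activated KO lie at 1.45 to 1.51 CPM and those of activated WT at 4.71 to 5.37 CPM; at sites that opened alike the activated libraries of both genotypes lie together.

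The values that chose the sites are given as a description. Opening in WT had a median of 2.87 on the log2 scale with an interquartile range of 2.21 to 3.63, and the difference of activated KO to activated WT had a median of -1.29 and reached -3.63. All 3 activated KO libraries lay below all 3 activated WT libraries at 4607 of the 4623 sites. In that same contrast edgeR's quasi-likelihood test called 20.1% of all sites tested lower and 15.1% higher in KO, and the authors' deposited table called 4.64% lower and 0.519% higher. The gain in CPM upon activation that KO kept, relative to the gain in WT, had a median of 27.7%, with an interquartile range of 19.0% to 35.5%. Only 77 sites stood lower in activated than in naive KO on this scale. In 4283 sites all 3 activated KO libraries stood above all 3 naive KO libraries. The same counts over all sites are not given, so neither 4607 nor 4283 is read as particular to these sites. Of sites that opened alike, 93.9% opened at least 2-fold in KO. By level in activated WT, the difference of activated KO to activated WT had a median of -1.17 over the 522 sites under 2 CPM, -1.36 over the 1270 sites at 5 to 10 CPM and -1.29 over the 290 sites at 20 CPM or more.

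**Figure D2:**
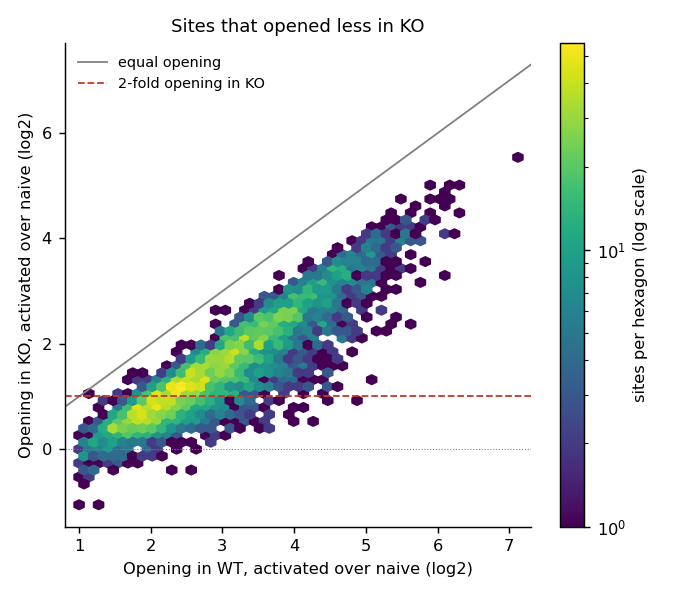
Opening in KO (vertical) against opening in WT (horizontal) for the 4623 reduced-opening sites, both as log2 of activated over naive after adding 0.5 CPM. Brighter cells hold more sites. Most sites lie below the diagonal, which follows largely from the rule, although naive KO was not part of it. Medians are 1.38 in KO and 2.87 in WT, and 3131 sites lie at or above the 2-fold line in KO.

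The sites furthest from WT kept little opening. The lowest, chr4:122951315-122951715 in Mfsd2a, which encodes a lysolipid transporter, held 1.51, 0.630 and 1.35 CPM in activated KO and 22.7, 17.6 and 20.02 CPM in activated WT, with 0.771, 0.506 and 0.838 CPM in naive KO and 0.516, 0.671 and 0.486 CPM in naive WT. In KO this site stayed near its naive level. The site chr1:184084924-184085324 near Dusp10, a phosphatase gene of stress kinases, held 1.28, 1.07 and 0.884 CPM in activated KO and 22.6, 14.6 and 15.6 CPM in activated WT. In Pde1a, the gene of a calmodulin-dependent phosphodiesterase, chr2:79966604-79967004 held 0.734, 0.921 and 0.372 CPM in activated KO and 13.7, 12.3 and 12.2 CPM in activated WT. The kept gain at these 3 sites was 2.35%, 5.54% and 4.61%.

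Among the sites with the highest levels in activated WT, the site chr2:31303253-31303653 near Ncs1, a calcium sensor gene, held 43.7, 41.9 and 41.2 CPM in activated KO and 96.6, 82.2 and 85.5 CPM in activated WT, against at most 0.598 CPM in any naive library of either genotype. Its kept gain was 47.6%. The site chr11:99168100-99168500 at the start of Gm32249, whose sequence is printed above, held 22.4, 20.6 and 19.0 CPM in activated KO and 73.5, 71.5 and 70.8 CPM in activated WT. Its kept gain was 24.1%.

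The rule sets ratios and not levels, and sites at its edge had different levels. Just inside the genotype threshold, chr14:7740656-7741056 held 1.41 CPM in activated KO and 3.32 CPM in activated WT, and just outside, chr1:161693410-161693810 held 5.90 CPM in activated KO and 12.3 CPM in activated WT. Just inside the opening threshold, chr15:85456006-85456406 held 2.18 CPM in activated and 0.838 CPM in naive WT, and just outside, chr13:102895784-102896184 held 10.3 CPM in activated and 4.94 CPM in naive WT.

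When sites were chosen on 2 replicate numbers and measured in the libraries of the other number, the lower level in KO was seen again in the libraries not used. With replicate 1 held out, 4308 sites were chosen, 99.6% of them stood lower in activated KO than in activated WT replicate 1, and the median difference was -1.36. With replicate 2 held out these values were 4855 sites, 99.8% and -1.24, and with replicate 3 they were 4949 sites, 99.7% and -1.20. The median over all sites in the same held-out pairs was 0.06, -0.00 and 0.01. Between 67.7% and 77.9% of the chosen sites were at -1 or less in the held-out pair. These sets are not the same as the 4623 sites. Replicate libraries may be technical, so this is agreement between libraries and may not extend to other mice. Replicate 1 of activated WT had the highest level at these sites, and without it the rule picked 4193 sites, of which 3868 were among the 4623.

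Reduced-opening sites lay away from gene starts. Of the 4623 sites, 53.2% lay within the RefSeq span of a protein-coding gene, 12.8% within 10 kb of one and 34.0% beyond. These shares were 57.8%, 14.9% and 27.3% of sites that opened alike and 61.0%, 13.4% and 25.7% of all sites. Only 2.20% lay within 1 kb of a gene start, against 8.16% of sites that opened alike and 12.4% of all sites, with chromosome 18 left out. Their median distance to a start was 23.0 kb, against 19.2 kb and 17.3 kb. A neighbour of the same kind within 10 kb was found for 1017 sites (22%). There were 85 clusters of 3 or more sites, and the largest held 6 sites each, at Atp11a (chr8:12810078-12822800), Ankrd33b (chr15:31332566-31357279) and Slc1a2 (chr2:102685649-102715285). In each of these 3 stretches 6 of 7 sites in the files were reduced-opening sites.

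In naive cells few of the sites differed. Naive KO libraries were not used by the rule, while naive WT libraries were, and had to lie below activated WT. Only 800 of the 4623 sites passed the filter on low counts there. Of these, edgeR's quasi-likelihood test with Benjamini-Hochberg adjustment over all 74371 sites tested called 17 lower and 3 higher in KO, against 1.29% lower and 0.816% higher of all sites tested. With the replicate number as a block (libraries with the same number deviated together) it called 57 lower and 10 higher of the 800, against 4.23% lower and 4.06% higher of all sites tested in that fit. The authors' deposited table called none of the 4623 sites in naive cells, with 82 lower and 140 higher at an unadjusted p under 0.05, and it called 0.00632% of all sites lower and 0.0108% higher. DESeq2 called 13 lower and 0 higher, with 51 and 8 at an unadjusted p under 0.05. In the main edgeR fit 83 of the 800 were lower and 28 higher at that unadjusted level. With all 12 ATAC libraries in 1 edgeR fit, 4621 of the sites were tested, and 15 were called lower and 6 higher. In that fit 87 were lower and 227 higher at an unadjusted p under 0.05, so the direction at that level depended on the fit. Without replicate 3 of naive KO edgeR called 6 lower and 0 higher, with 63 and 24 at an unadjusted p under 0.05. It called 10 lower and 1 higher without replicate 1 of naive KO and likewise without replicate 2 of naive WT, and 12 lower and 1 higher without replicate 1 of naive WT.

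Of the sites lower in naive KO, the 2 with the smallest adjusted p lay near Fosl2 and at the start of Gm32249. The site chr5:32133533-32133933 near Fosl2, which encodes the AP-1 subunit FRA2, held 8.22, 8.28 and 6.96 CPM in naive KO and 16.8, 14.7 and 14.6 CPM in naive WT. Groups did not overlap, and the log2 difference was -1.01 ± 0.11 (SE, edgeR adjusted p = 7.81e-05). This site was open before activation in WT, and it held 18.4, 16.1 and 17.3 CPM in activated KO and 38.9, 34.8 and 33.3 CPM in activated WT. Its log2 difference of activated KO to activated WT was -1.02, near the difference in naive cells. At this site the name thus stands for a lower level in KO before and after activation. The log2 opening itself differed little between genotypes there. The site at the start of Gm32249 held 5.14, 6.49 and 6.58 CPM in naive KO and 11.6, 11.6 and 11.0 CPM in naive WT, a log2 difference of -0.93 ± 0.11 (edgeR adjusted p = 0.000149). Another, chr10:20907012-20907412, lay beyond 10 kb of any protein-coding gene and held 0.771, 0.782 and 0.754 CPM in naive KO and 1.89, 2.81 and 2.27 CPM in naive WT, a difference of -1.62 ± 0.23 (edgeR adjusted p = 0.000917). The 2 others named by rule were chr9:70039976-70040376 near Gcnt3 at -1.07 and chr8:126839263-126839663 at -1.05. The strongest sites near Cd6 and Bach2 stood at -0.51 and -0.57 in naive cells (KO to WT) and passed the test as well. The 3 sites higher in naive KO were chr1:180290394-180290794 at 1.56, chr11:113762322-113762722 near Cdc42ep4 at 1.33 and chr4:130801241-130801641 in Sdc3 at 1.42, all at or under 1.80 CPM in each naive KO library.

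RNA of genes beside the sites was not used by the rule. A site was tied to every gene whose RefSeq span lay within 10 kb of it, which gave 3974 genes, of which 1803 were tested. In activated cells 406 of them (22.5%) were lower in KO and 86 (4.77%) higher by edgeR's quasi-likelihood test at an adjusted p of 0.05. Without replicate 3 of activated KO, 50 were higher. Over all genes tested these shares were 9.04% and 5.89%, and over 9767 genes with sites of other kinds alone they were 6.73% and 6.13%. The median log2 difference was -0.08 for genes with a reduced-opening site, 0.03 for those with other sites alone and 0.01 for all genes. Genes with a reduced-opening site made up 37.5% of all genes that fell and 12.2% of all that rose. Of the 259 genes that fell at least 2-fold, 141 had such a site, and of the 177 that rose at least 2-fold, 17 did. Of all 11980 genes tested, 1803 had such a site. With upper-quartile scaling, 336 fell and 123 rose, which took the share that fell among called genes to 73.2% against 82.5%, while over all genes it took it to 46.1% against 60.5% and the median of all genes to 0.06. In bulk RNA, fewer cells of a type and less RNA per cell cannot be told apart.

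The share that fell was higher where more sites were present. It was 6.73% of genes with none, 18.4% of 1346 genes with 1 site, 29.1% of 299 genes with 2 sites, 45.5% of 112 genes with 3 or 4 sites and 43.5% of 46 genes with 5 or more. The share that rose was 6.13%, 5.57% and 3.68% for 0, 1 and 2 sites. Among genes with 3 or 4 sites edgeR's test found 0 higher, DESeq2 found 0 and 4 had an unadjusted p under 0.05. Among genes with 5 or more edgeR found 0 higher, DESeq2 found 1 and 1 had an unadjusted p under 0.05. Genes with more sites were longer, with a median span of 19.0 kb at 0 sites, 44.7 kb at 1 and 258 kb at 5 or more. Within spans under 20 kb, 21.6% of genes with a reduced-opening site fell, against 4.93% of genes with other sites alone, and within spans over 100 kb the shares were 23.0% and 9.62%. Among genes with 13 or more sites of any kind they were 26.9% and 13.9%.

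**Figure D3:**
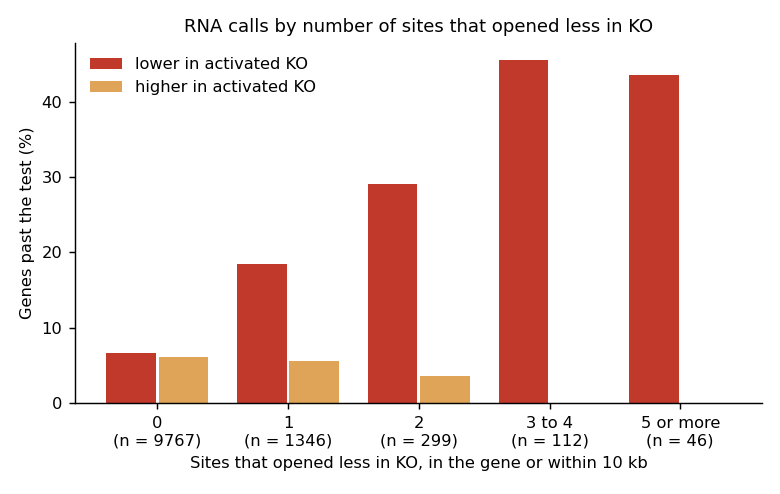
Percentage of tested genes whose RNA was lower or higher in activated KO than in activated WT (edgeR adjusted p under 0.05), by the number of reduced-opening sites within 10 kb of the gene. The share that was lower goes from 6.73% with no such site to 45.5% with 3 or 4 sites, and the share that was higher stays at or below 6.13%.

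How genes moved upon activation was also set beside the sites. Among genes with a reduced-opening site, 29.3% of the 826 genes that rose upon activation of WT cells, 16.6% of the 724 that fell and 17.4% of the 253 that did neither were lower in activated KO. Among genes with other sites alone these shares were 8.21%, 6.37% and 3.99%. The WT activation comparison and the genotype comparison share the activated WT libraries. Upon activation, 761 of the 1803 genes rose and 772 fell in KO, and 826 rose and 724 fell in WT, where over all genes tested 42.3% rose and 39.8% fell in KO and 42.3% rose and 40.3% fell in WT. The interaction, in which the genotype difference of naive cells is taken from that of activated cells, was negative for 142 genes and positive for 22, against 2.52% and 1.18% of all genes tested.

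**Figure D4:**
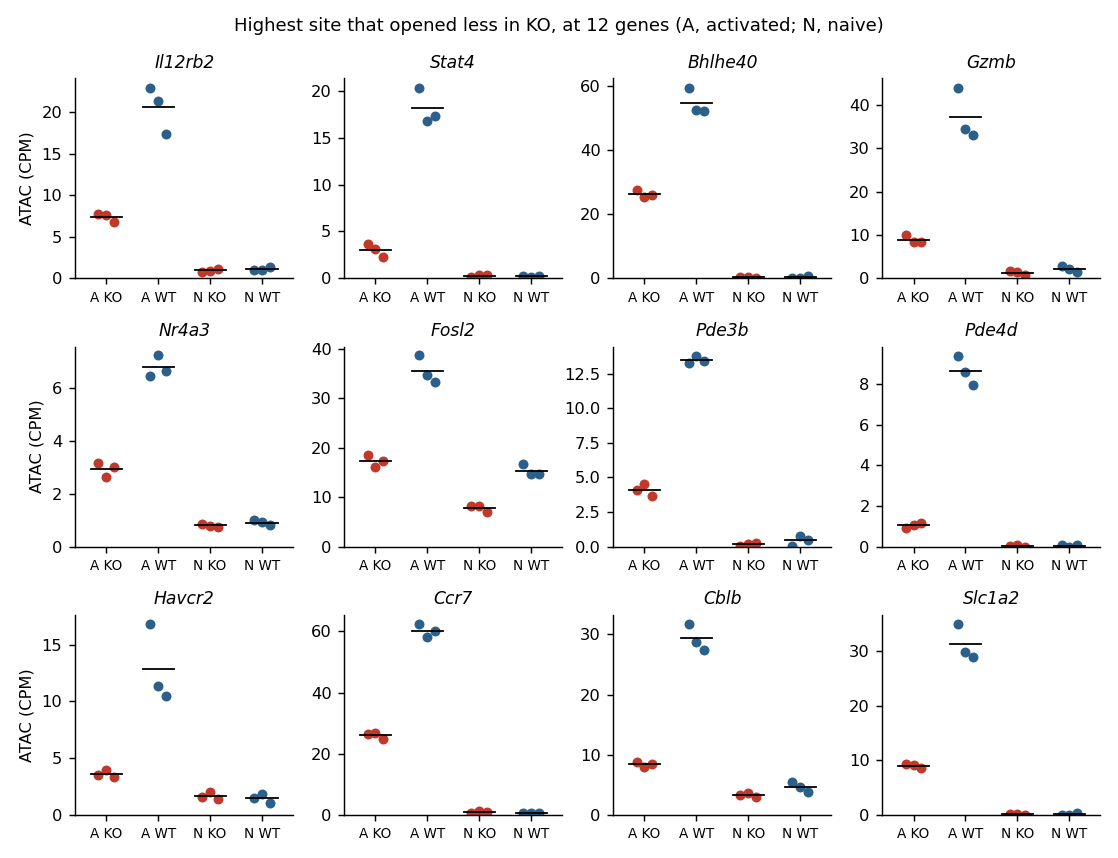
CPM in each ATAC library at the reduced-opening site with the highest level in activated WT for 12 genes, with a line at each group's mean. Activated KO lies below activated WT at each of these sites without overlap, and at Fosl2 naive KO also lies below naive WT.

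The gene lists used here and below were fixed with earlier results of these data known. Their counts and medians are therefore descriptions and lend no support to a list as a whole. Of 24 genes fixed for IL-12 signalling and the Th1 fate, 23 were tested, of which 10 fell and 3 rose in activated KO. Reduced-opening sites lay at 11 of them, of which 7 fell, and the other 4 did not pass the test. Their median difference was -1.21, against -0.31 over the list's 23 tested genes and 0.01 over all genes. Il12rb2 encodes the signalling chain of the IL-12 receptor and had 3 such sites. The strongest, chr6:67367114-67367514 inside the gene, held 7.70, 7.61 and 6.80 CPM in activated KO and 23.0, 21.4 and 17.4 CPM in activated WT. Its groups did not overlap, and both naive groups lay between 0.822 and 1.35 CPM. Il12rb2 RNA stood at 5.44, 5.16 and 5.28 CPM in activated KO and 111, 59.4 and 62.9 CPM in activated WT (log2 difference -3.88 ± 0.24, edgeR adjusted p = 2.50e-07). Replicate 1 of activated WT was well above the other two here.

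Stat4, the transcription factor that IL-12 activates, had 4 reduced-opening sites beside 4 that opened alike. The strongest, chr1:52055927-52056327 inside the gene, held 3.67, 3.15 and 2.23 CPM in activated KO and 20.3, 16.7 and 17.3 CPM in activated WT, with 0.377 CPM or less in every naive library. Stat4 RNA stood at 48.2, 45 and 50.3 CPM in activated KO and 255, 235 and 272 CPM in activated WT (-2.41 ± 0.08, edgeR adjusted p = 1.20e-12). Upon activation Stat4 RNA fell in KO by 1.14 on the log2 scale and rose in WT by 1.09, so the genotypes moved in opposite directions.

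Gzmb had 1 site in the files, the reduced-opening site at its start. It held 9.91, 8.29 and 8.42 CPM in activated KO and 44.0, 34.4 and 33.2 CPM in activated WT, with 1.75, 1.52 and 0.754 CPM in naive KO and 2.84, 2.22 and 1.46 CPM in naive WT. Gzmb RNA was 10.6, 5.35 and 5.0 CPM in activated KO and 1013.5, 333 and 295 CPM in activated WT (-6.26 ± 0.70, edgeR adjusted p = 0.00180). Without replicate 1 of activated WT the difference was -5.46. Bhlhe40, a transcription factor gene of effector T cells, had 3 such sites, and the strongest held 27.7, 25.4 and 25.9 CPM in activated KO and 59.4, 52.5 and 52.4 CPM in activated WT. Its RNA was 130, 121 and 131 CPM in activated KO and 487, 382 and 413 CPM in activated WT (-1.75 ± 0.10). The other genes that fell were Runx3, a lineage factor of Th1 and CD8 cells, at -1.20, Zeb2, a factor of terminal effector cells, at -1.21 and Ifngr2, the second chain of the interferon gamma receptor, at -0.45.

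A lower site was not always beside lower RNA. Tbx21, the gene of the Th1 master factor T-bet, had a reduced-opening site at chr11:97119359-97119759 with 7.61, 6.98 and 6.10 CPM in activated KO and 19.5, 12.2 and 13.2 CPM in activated WT. Of the 9 sites of Tbx21 that opened in WT, 7 opened alike in both genotypes. Its RNA was 126, 139 and 138 CPM in activated KO and 116, 127 and 127 CPM in activated WT (0.13 ± 0.08, edgeR adjusted p = 0.298). Tyk2, a kinase of the IL-12 receptor, stood at 0.09 and Prdm1, the gene of Blimp-1, at 0.13, and neither passed the test. At each of these genes 3 of 4 opened sites opened alike. Ccl5, a chemokine gene, stood at -1.24 (edgeR adjusted p = 0.200), at -1.17 with the replicate block (adjusted p = 4.21e-05) and at -0.37 without replicate 1 of activated WT (adjusted p = 0.612).

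Of 30 genes fixed as targets of cyclic AMP and CREB, 28 were tested, of which 20 fell and 2 rose. Reduced-opening sites lay at 14 of them, 40 sites in all, and 12 of these genes fell and 1 rose, with a median of -1.64 against -1.33 over the 28 tested genes. The phosphodiesterases, which break down cyclic AMP, carried many of the sites. Pde4d had 15, the most of any gene, among 32 of its 64 sites that opened in WT. The strongest, chr13:109669922-109670322, held 0.917, 1.07 and 1.16 CPM in activated KO and 9.36, 8.58 and 7.93 CPM in activated WT. Pde4d RNA was 6.30, 5.72 and 6.48 CPM in activated KO and 64.6, 65.3 and 68.4 CPM in activated WT (-3.42 ± 0.17, edgeR adjusted p = 9.15e-09).

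Pde3b, which encodes another phosphodiesterase, had 4 reduced-opening sites. The strongest, chr7:114520137-114520537, held 4.13, 4.51 and 3.63 CPM in activated KO and 13.3, 13.8 and 13.4 CPM in activated WT. Its RNA was 11.3, 12.2 and 13.2 CPM in activated KO and 92.3, 113 and 107 CPM in activated WT (-3.09 ± 0.14, edgeR adjusted p = 1.32e-09). RNA of both phosphodiesterases was also lower in naive KO, at -1.64 for Pde3b and -0.96 for Pde4d. The call of Pde4d there was lost in 4 of 17 alternatives, without any 1 of the naive KO libraries and without replicate 3 of naive WT. Pde4b, with 4 sites, fell by 1.15 on the log2 scale in activated KO.

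The NR4A nuclear receptors, immediate early genes of the antigen receptor and of cyclic AMP, all fell and all had reduced-opening sites. Nr4a3 had 3, and the strongest, chr4:48087481-48087881, held 3.16, 2.62 and 3.03 CPM in activated KO and 6.48, 7.24 and 6.64 CPM in activated WT. Its RNA was 83.9, 89.4 and 83.9 CPM in activated KO and 266, 292 and 314 CPM in activated WT (-1.76 ± 0.08). Nr4a1 and Nr4a2, with 1 site each, stood at -1.51 and -2.24. Fosl2 had 4 such sites, which lay from -1.75 to -1.02, and its RNA was 16.2, 18.1 and 17.9 CPM in activated KO and 102, 88.8 and 83.6 CPM in activated WT (-2.40 ± 0.13).

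Further genes of this list that fell were the MAP kinase phosphatases Dusp4 (-2.48), Dusp5 (-1.40) and Dusp1 (-0.98), the salt-inducible kinase Sik1 (-1.37), which restrains CREB's coactivators, and the transcription factor Nfil3 (-1.27). Egr2, an immediate early factor, rose by 0.48 ± 0.15 (edgeR adjusted p = 0.0458) although its site at chr10:67529475-67529875 held 3.39, 2.13 and 3.16 CPM in activated KO and 8.89, 5.91 and 4.94 CPM in activated WT. That call was lost in 10 of 17 alternatives, and 1 of the 2 opened sites of Egr2 opened alike. Atf3, a stress-induced factor, stood at -2.50 (edgeR adjusted p = 0.0533) and at -2.47 with the replicate block (adjusted p = 2.63e-08), with 16.8, 8.48 and 10.01 CPM in activated KO and 109, 50.8 and 41.5 CPM in activated WT.

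**Figure D5:**
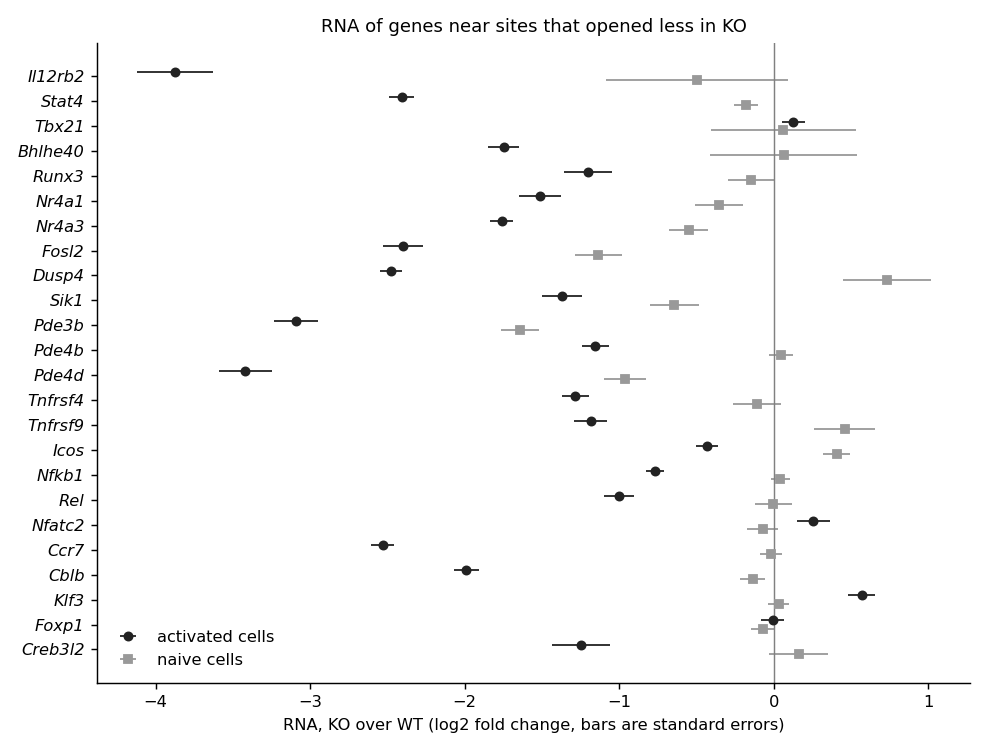
Log2 difference of RNA, KO over WT, with SE, in activated (circles) and naive (squares) cells for 24 genes with reduced-opening sites. In activated cells Il12rb2 (-3.88) and Pde4d (-3.42) lie far below 0, while Tbx21 (0.13) lies near it; of the genes shown, Pde3b, Fosl2 and Pde4d passed the test in naive cells as well.

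Activation and checkpoint receptors fell together where they had such sites. Of 18 genes fixed, 17 were tested and 12 fell. The 7 tested genes with a reduced-opening site all fell, with a median of -1.18 against -0.46 over the 17. Tigit, an inhibitory receptor, stood at 6.38, 4.70 and 5.47 CPM of RNA in activated KO and 39.0, 31.9 and 31.9 CPM in activated WT (-2.63 ± 0.20), and its site at 4.45, 3.25 and 4.61 CPM in activated KO and 10.5, 9.45 and 8.53 CPM in activated WT. The costimulatory receptors Tnfrsf4 (OX40) and Tnfrsf18 (GITR), which are neighbours and share 1 site, stood at -1.28 and -1.26, and Tnfrsf9 (4-1BB) at -1.18. Their shared site, chr4:156016484-156016884, held 8.44, 7.03 and 5.59 CPM in activated KO and 24.5, 15.9 and 18.4 CPM in activated WT. The adhesion receptor Cd44 fell by 1.11, the costimulatory receptor Icos by 0.43 and the lymphocyte receptor Cd6 by 0.46 on the log2 scale. Havcr2 opened less at its start, with 3.53, 3.98 and 3.35 CPM in activated KO and 16.8, 11.4 and 10.4 CPM in activated WT, and its RNA was too low to test, at most 0.158 CPM in activated KO and 0.455 CPM in activated WT.

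Among cytokines and TNF ligands, 20 genes were fixed, 14 were tested, 10 fell and 2 rose. Of 5 tested genes with a reduced-opening site, 4 fell. Il3 RNA was 0.0788, 0.369 and 0.185 CPM in activated KO and 20.2, 10.4 and 16.4 CPM in activated WT (-6.18 ± 0.42, edgeR adjusted p = 6.48e-07), with -6.81 without replicate 2 of activated KO, and it was at 0 in every naive library. Its start site was weak, at 0.596, 0.824 and 0.559 CPM in activated KO and 2.92, 1.75 and 1.98 CPM in activated WT. Lif and Osm, neighbouring genes of the IL-6 family, share 1 site and stood at -0.70 and -0.98, and the CD30 ligand gene Tnfsf8 at -0.35. The calls of Lif and Tnfsf8 were lost in 10 and 6 of 17 alternatives. Xcl1, a chemokine gene, stood at 0.02 (edgeR adjusted p = 0.978), although its site, which reaches into its promoter, held 2.98, 2.57 and 2.28 CPM in activated KO and 7.03, 8.41 and 8.35 CPM in activated WT.

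Of 20 genes fixed as AP-1, IRF, NFAT and NF-kappaB factors, all were tested, 9 fell and 3 rose. Reduced-opening sites lay at 7, of which 4 fell, with a median of -0.77. Besides Fosl2 and Nfil3, these were the NF-kappaB genes Rel, at 60.3, 62.1 and 52.4 CPM in activated KO and 106, 120 and 124 CPM in activated WT (-1.003 ± 0.10), and Nfkb1, at -0.77 ± 0.06. Bach2, a repressor that holds back effector genes, had 7 such sites. Its strongest, chr4:32588256-32588656, was open before activation and held 24.9, 27.7 and 28.0 CPM in activated KO and 65.1, 62.7 and 64.6 CPM in activated WT. Bach2 RNA stood at -0.40 (edgeR adjusted p = 0.0528). Nfatc2 (0.26) and Ikzf2 (0.46) did not pass the test either.

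Genes of quiescence and homing numbered 18, of which 17 were tested, 10 fell and 2 rose. Ccr7, the receptor that guides T cells to lymph nodes, had 1 such site within 10 kb, chr11:99160706-99161106, which held 26.6, 26.7 and 24.7 CPM in activated KO and 62.3, 58.2 and 60.1 CPM in activated WT. Ccr7 RNA stood at 241, 228 and 233 CPM in activated KO and 1389.3, 1278.1 and 1386.5 CPM in activated WT (-2.53 ± 0.08, edgeR adjusted p = 2.77e-13). As for Stat4, the genotypes moved in opposite directions upon activation, at -1.61 in KO and 0.90 in WT. Cblb, an E3 ubiquitin ligase gene that restrains T cell activation, had 4 such sites. Its strongest held 8.80, 7.90 and 8.47 CPM in activated KO and 31.8, 28.8 and 27.4 CPM in activated WT, and its RNA was 56.6, 56.2 and 60.2 CPM in activated KO and 246, 209 and 231 CPM in activated WT (-1.99 ± 0.08).

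Ccr6 had 5 reduced-opening sites among 10 sites, the one at its start at 5.78, 7.08 and 6.33 CPM in activated KO and 14.5, 15.9 and 15.8 CPM in activated WT. Its RNA was 1.10, 1.01 and 1.30 CPM in activated KO and 3.38, 4.64 and 7.09 CPM in activated WT (-2.13 ± 0.32). Klf3, a repressor of the Kruppel-like family, rose by 0.57 ± 0.09 (edgeR adjusted p = 0.000178) beside a site that held 2.43, 2.62 and 2.28 CPM in activated KO and 9.01, 8.87 and 9.46 CPM in activated WT. Of the 2 opened sites of Klf3, 1 opened alike. Foxp1, a quiescence factor with 4 reduced-opening sites among 58 that opened, stood at -0.00.

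Genes of glycolysis, of PKA subunits and of the CREB family had few such sites. In glycolysis 12 of 16 tested genes fell, and 2 had a reduced-opening site, Pfkfb3 at -0.39 (edgeR adjusted p = 0.00203) and Pfkp at -0.39 (adjusted p = 0.0578, and 0.00306 with the replicate block). Among 7 tested PKA subunits and inhibitors 4 fell, and 3 had such a site, of which Prkar2a, a regulatory subunit, fell by 0.30, a call lost in 3 of 17 alternatives, while the catalytic Prkacb stood at 0.03 and the regulatory Prkar2b at 0.43 without passing the test. Of 12 CREB family and coactivator genes 2 fell and 1 rose. The 2 with such sites were Creb3l2, a membrane-bound factor, which fell by 1.25, and Crebbp, the gene of CBP, at -0.15.

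Outside the lists, the largest changes among genes with a reduced-opening site were mostly decreases. Ramp3, which modifies the calcitonin receptor family, stood at 0.630, 0.0922 and 0.278 CPM in activated KO and 38.1, 28.6 and 33.8 CPM in activated WT (-6.54 ± 0.25), and at -7.41 without replicate 1 of activated KO. Its site was weak, at 1.01, 0.630 and 0.559 CPM in activated KO and 2.65, 2.12 and 2.17 CPM in activated WT. Perp, a desmosome gene, stood at 2.91, 3.14 and 3.24 CPM of RNA in activated KO and 76.4, 66.4 and 77.9 CPM in activated WT (-4.57 ± 0.16). Others that fell were Zdbf2 (-5.99), the neurotrophin receptor gene Ntrk3 (-5.44), the poly(A) polymerase gene Tent5a (-4.55), the basement membrane gene Nid1 (-4.47) and the enkephalin precursor gene Penk (-4.15). Ntrk3 stood at -4.79 and -6.64 without replicates 1 and 3 of activated KO, and Penk at -5.12 without replicate 3.

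Fewer genes rose beside such a site. Slc30a3, a zinc transporter gene, stood at 5.75, 5.53 and 6.21 CPM of RNA in activated KO and 0.260, 0.638 and 0.808 CPM in activated WT (3.34 ± 0.33, edgeR adjusted p = 3.84e-06). Its site, which lies inside the neighbouring gene Cad, held 1.24, 1.84 and 1.63 CPM in activated KO and 13.4, 12.03 and 12.6 CPM in activated WT. RNA and this site thus stood in opposite directions. Of the 6 sites within 10 kb of Slc30a3 that opened in WT, 4 opened alike in both genotypes. Bank1, a B cell scaffold gene, rose by 1.37 ± 0.23, in the libraries where the B cell markers above were also higher. The others named by rule lay between 0.79 for the cytidine deaminase Apobec1 and 1.46 for Sspo, with Frmd4a, Tbc1d16, Zfp467, Ptk7, the sorting receptor Sorl1 and the zinc finger factor Casz1 between them. The call of Ptk7 (edgeR adjusted p = 0.0263) was lost in 4 of 17 alternatives, without replicate 2 or 3 of activated KO and without replicate 1 or 2 of activated WT.

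Genes with the most reduced-opening sites differed in their RNA. After Pde4d came Rora, a nuclear receptor gene, with 12 of 40 opened sites, Slc1a2, a glutamate transporter gene, with 12 of 23, Pde1a with 11 of 13 and Fars2, a mitochondrial synthetase gene, with 10 of 41. Slc1a2 RNA was 0.394, 0.645 and 1.02 CPM in activated KO and 4.94, 9.29 and 11.0 CPM in activated WT (-3.62 ± 0.40). Its strongest site held 9.36, 9.16 and 8.52 CPM in activated KO and 34.9, 29.8 and 29.0 CPM in activated WT. Rora stood at -0.86 (edgeR adjusted p = 0.0466), a call lost in 13 of 17 alternatives, and at -1.30 without replicate 1 of activated KO, although its strongest site held 12.4, 12.7 and 11.8 CPM in activated KO and 46.2, 46.1 and 48.5 CPM in activated WT. Fars2 stood at 0.09 (adjusted p = 0.628). Pde1a RNA was at 0 in all activated KO libraries and at 0.260, 0.273 and 0.538 CPM in activated WT, too low to test, and 0 allows up to 3 counts, which is 0.251 to 0.391 CPM in an RNA library.

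In naive cells 7 genes with a reduced-opening site were lower in KO and 2 higher, against 0.117% and 0.125% of all genes tested. The lower ones were Plaur (-1.76), Pde3b (-1.64), Lmna (-1.59), Fosl2 (-1.13), Pde4d (-0.96), Gpr171 (-0.78) and Dusp10 (-0.44). Pde3b stood at 68.9, 89.0 and 78.3 CPM in naive KO and 200, 275 and 262 CPM in naive WT, and Fosl2 at 12.8, 9.98 and 8.42 CPM in naive KO and 25.7, 24.0 and 18.3 CPM in naive WT. At Fosl2, naive chromatin and naive RNA were both lower. Plaat3 (0.52) and Racgap1 (0.70) were higher. The 7 lower calls came to 3 without replicate 3 of naive KO and to 4 without replicate 2 of naive WT.

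Forskolin-treated cells had no ATAC libraries, so for them the sites give a list of genes and not a level. Of the 1683 genes with a reduced-opening site that were tested there, 400 were lower and 385 higher in KO, against 18.8% and 19.7% of all genes tested, and the median was -0.01. Decreases and increases were thus near equal in number there. Single genes of the cyclic AMP response fell strongly. Fosl2 averaged 6.002 ± 4.21 CPM in KO libraries and 802 ± 33.7 CPM in WT libraries (SD, n = 3 each), a log2 difference of -7.02. Pde4d averaged 102 ± 2.66 CPM in KO and 635 ± 17.2 CPM in WT (-2.63). Nr4a3 stood at -4.01, Sik1 at -3.19, Pde3b at -2.45, Cblb at -2.07 and Ramp3 at -6.16, and Stat4 at -1.86 and Il12rb2 at -2.10 were lower as well. Tnfrsf9 (0.61), Osm (0.67) and Bank1 (1.82) were higher in KO.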

How the data were processed

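ATAC-seq and RNA-seq were done in naive and activated CD4 T cells of KO and WT mice, and RNA-seq also after forskolin, with 3 libraries per group. For each site and gene the authors deposited counts, as whole numbers without scaling, with coordinates on mm10 per the submitters' processing notes. The aligner, counter and peak caller are not given in the sources used here. For ATAC the authors also deposited group means and a fold on a log2 scale, not scaled to depth, with a p-value and an FDR per site. Of 27179 RNA features, 1314 had no symbol. They took 0.128% to 0.159% of the counts in a library, and none entered a test.

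Counts were tested with edgeR 4.0.16 in R 4.3.3 (filterByExpr, TMM, robust quasi-likelihood test, Benjamini-Hochberg adjustment over all features tested, threshold 0.05). Naive and activated RNA shared 1 fit with a mean per group, and forskolin RNA and naive ATAC had fits of their own. RNA levels are CPM and differences are log2 of KO over WT with SE. Sites of nearly one width (400 bp in 110684 of 110808) were tied to RefSeq gene spans of GRCm38.p6 with 10 kb on either side, and 23868 RNA symbols were found there. Floors of 3 counts cover counting error only. Tests were tried on simulated data first, with large changes planted only in features above a set mean count. That trial does not cover small changes or low counts, such as those of most reduced-opening sites in naive cells.

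The sites and gene lists were chosen with earlier results of these data known. Named by rule were list genes with a reduced-opening site and the strongest such site of each, the 10 lowest and 10 highest sites, up to 5 sites past the naive test in each direction, sites at the thresholds, the 10 largest RNA changes in each direction where the higher mean reached 5 CPM, and the 5 genes with most sites. Of these the text gives the ones its results turn on. A gene that the naming rule also covers is not reported here. The naive RNA genes and the genes with promoter windows were picked after their values were seen. Same-numbered KO and WT libraries deviated together in naive ATAC (r = 0.48, 0.49 and 0.26 for numbers 1, 2 and 3), activated RNA (0.71, 0.46 and 0.39) and forskolin RNA (0.32, 0.26 and 0.56), which was taken as pairing. In these, each number was the best match of its own in 3 of 3 pairs. In activated ATAC (0.51, 0.18 and 0.27) this held in 1 of 3 pairs, as in naive RNA (0.60, -0.07 and 0.08). Pairing was not taken for naive RNA and is uncertain for activated ATAC. The main fits leave pairing out. Alternatives were DESeq2 1.42.0, RLE scaling, upper-quartile scaling (added after the data were seen), no filter, the replicate block, each library left out, other windows around genes, other pseudocounts and the authors' FDR.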

Additional observations from a re-analysis of the deposited data

Results flagged for a closer look

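The interaction was tested for 75 of 81 genes named by rule, all with a reduced-opening site. For 32 of them, 27 negative and 5 positive, the genotype difference in RNA was not the same in activated as in naive cells, by the interaction term of edgeR's quasi-likelihood fit with an adjusted p under 0.05. Values are log2, the difference of KO to WT in activated cells minus that in naive cells, over 3 libraries per group. Of all genes tested, 2.52% had a negative and 1.18% a positive term past this threshold. Of the 32, 9 are among 20 genes named for the size of their change in activated cells, which the interaction shares, so the count of named genes is not read against those shares.

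Among IL-12 and Th1 genes the term was -3.38 for Il12rb2, -2.23 for Stat4 and -1.05 for Runx3. Of cyclic AMP and CREB targets it was -1.15 for Nr4a1, -1.21 for Nr4a3, -1.26 for Fosl2, -0.83 for Dusp1, -3.21 for Dusp4, -1.28 for Dusp5, -1.45 for Pde3b, -1.20 for Pde4b and -2.46 for Pde4d. Receptors stood at -1.18 for Tnfrsf4, -1.64 for Tnfrsf9, -0.90 for Tnfrsf18, -0.84 for Icos and -0.39 for Cd6. For Osm it was -0.98, for Nfkb1 -0.81, for Rel -1.001 and for Creb3l2 -1.41. Homing and quiescence genes stood at -2.51 for Ccr7, -1.85 for Cblb and 0.54 for Klf3.

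Outside the lists, Ramp3 stood at -6.33, Ntrk3 at -5.27, Tent5a at -4.66 and Perp at -7.41, where Perp was at 0 in all naive WT libraries, so that its fitted value depends on the prior count. Positive terms were found for Frmd4a at 1.51, Tbc1d16 at 1.24, Sorl1 at 0.95 and Apobec1 at 0.78. The call was lost in 10 of the alternatives for Dusp1, 7 for Cd6, 6 for Il12rb2, 5 for Osm, 3 for Runx3 and 2 for Perp.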

How the results depend on the processing

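The choice of pseudocount set how many sites were picked: 6409 with 0.1 CPM and 3133 with 1 CPM, against 4623 with 0.5 CPM, and 4340 with TMM-scaled library sizes. Leaving out 1 library gave 4193 to 4893 sites. Of 254 values over counts of sites or genes, 218 stayed within 1.5 times and 36 did not, and no alternative turned the direction of a called value. Of naive ATAC sites, 17 were lower and 3 higher, against 57 and 10 with the replicate block, 0 and 0 by the authors' deposited FDR, 0 higher by DESeq2, 6 higher with all 12 ATAC libraries in 1 fit, and 6 to 19 lower and 0 to 3 higher with 1 library left out. Of genes in activated RNA, 86 were higher, against 49 with the gene span alone, 179 with 50 kb on either side and 50 to 97 with 1 library left out. In naive RNA 7 were lower and 2 higher, against 3 to 9 and 0 to 3 with 1 library left out, and DESeq2, no filter on low counts and the replicate block gave 6, 4 and 4 higher. The window of 50 kb, which holds more genes, gave 1439 lower and 1655 higher upon activation in WT, 1479 and 1570 in KO, and 759 in each direction after forskolin. The interaction was positive for 22 genes, against 14 with the gene span alone, 39 with 50 kb, and 13 to 26 with 1 library left out. With the replicate block, calls in activated RNA changed for Ccl5, Atf3 and Pfkp, as given in the report, and Sorl1 passed after forskolin, with no other change of call in these 2 comparisons among the genes named here. In naive RNA, where numbers did not pair libraries and each number was the best match of its own in 1 of 3 pairs, the block added Sik1, and in the interaction it added Bhlhe40, Ccl5, Sik1 and Zfp467. The cause of these moves was not tested, except that a wider window holds more genes. Of 1275 values over single genes, 1201 kept their side of the threshold, 60 lost their call and 14 gained one.

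Low counts limit the naive ATAC values, since 3823 of the 4623 sites did not pass the filter there. The rule fixed the direction in activated ATAC, so those values are no evidence of it. A site within 10 kb of a gene is not shown to act on that gene, and a long gene holds more sites by its length.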
